A study of Rattus norvegicus with 6 samples.

Results

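The tubular injury markers are 10 genes that kidney tubule cells are known to switch on, or raise, when they are damaged: Havcr1, Lcn2, Spp1, Clu, Vim, Timp1, Cd44, Lgals3, Sox9 and Anxa2. Every probe set whose only gene symbol in the platform annotation was one of these names was taken, whatever its level. This gave 12 probe sets for 9 of the 10 genes, out of 31042 probe sets and 14218 named genes on the array. Sox9, a transcription factor of regenerating tubule cells, had no probe set under its own symbol in the annotation used and was not analysed here. None of the 10 genes (0) lies on chromosome 9, by the gene table of the rat assembly GRCr8.

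Kidney RNA was compared between congenic rats, bred on the Dahl S background with a piece of chromosome 9 from the R strain, and Dahl salt-sensitive (S) rats. All were males aged 53 days, weaned at 30 days and kept on a diet with 2% salt, and each cage held 1 rat of each strain. RNA of 2 rats was pooled into each sample, so the 6 rats of a strain gave 3 pools and 3 arrays. No rats on another diet were part of the comparison, so the levels below are those of salt-fed kidneys in both strains. By design the strains share the Dahl S genome outside the introgressed segment.

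When tubule cells are injured they lose transport functions, spread over bare basement membrane and turn on genes that are quiet in healthy tubules. Havcr1 encodes KIM-1, a receptor with which injured proximal tubule cells take up dying neighbours, and Lcn2 encodes NGAL, a secreted protein that binds iron-carrying siderophores. Both proteins are measured in urine as signs of tubular injury, and the kidneys of Dahl S rats are known to develop tubular and glomerular damage on a salt-rich diet.

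The arrays were brought to one scale by the submitters, and median signals ran from 42.9 to 46.0 on the congenic arrays and from 43.9 to 45.1 on the S arrays. The ratio of 3′ to 5′ signal of actin, which increases as RNA degrades, was 6.15 to 7.17 on the congenic arrays and 6.54 to 9.42 on the S arrays. Kidney markers were present on every array, among them the uromodulin gene Umod at 6589 to 7010 on the congenic arrays and 6576 to 6774 on the S arrays. A pair of congenic arrays held RNA of another organ. The liver gene Alb, which encodes albumin, measured 6683 on congenic replicate 1, against 21.2 and 26.9 on the other congenic arrays and 19.3 to 56.7 on the S arrays. The adrenal gene Cyp11a1 measured 1598 on congenic replicate 3, against 46.9 and 48.1 on the other congenic arrays and 40.9 to 48.2 on the S arrays. Results of the markers are therefore also given without these arrays where it matters.

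None of the tested injury markers passed the test between the strains, and the pools of the strains overlapped for each. Of the 10 probe sets that passed the filter on low values (from 9 genes), 0 passed limma's test at an adjusted p under 0.05, as on the whole array, where 0% of 18625 probe sets passed. At an unadjusted p under 0.05 the members again numbered 0, beside 6.61% of all probe sets, and in 0 of the 10 were the groups free of overlap, beside 12.5% of all. The log2 fold change, congenic over S, was above 0 in 7 of 10, with a median of 0.063 and a range of -0.075 to 0.17. Without congenic replicate 1, the array with liver RNA, the median was -0.057. Over all tested probe sets 48.7% were above 0 and the median was -0.0036. In whole-kidney RNA, fewer cells of a type and less RNA per cell cannot be told apart.

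**Figure D1:**
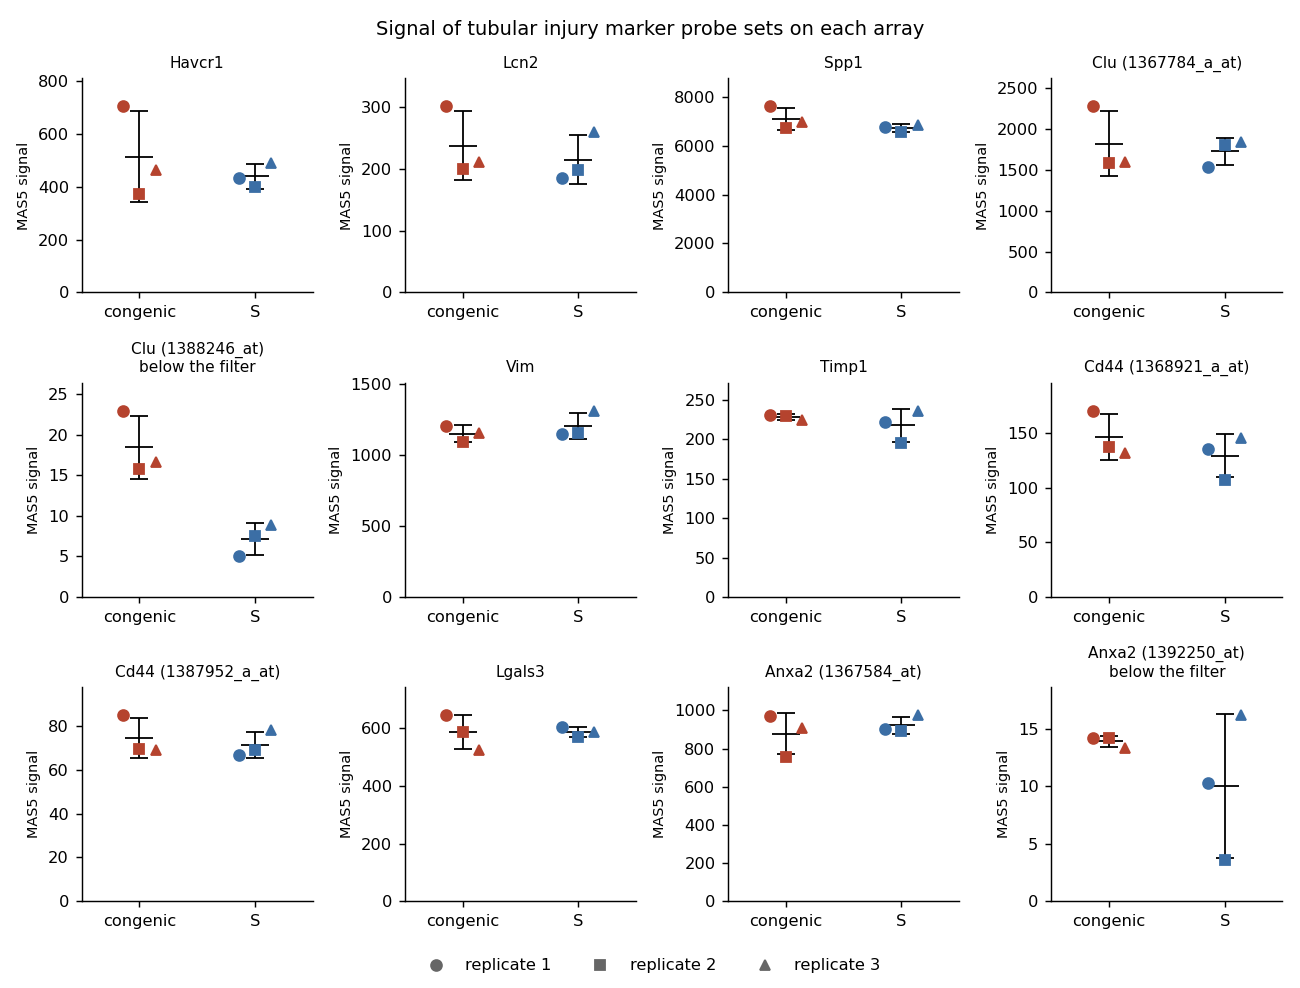
MAS5 signal (linear scale, from 0) of the 12 probe sets of the injury markers on each array, with congenic arrays in red on the left and S arrays in blue on the right of each panel. Symbols mark the replicate number, and bars give mean ± SD of 3 pools. Havcr1 reached 706 on congenic replicate 1, and the 5 other arrays lay between 374 and 491.

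Havcr1 had the widest spread of the markers. It measured 706, 374 and 465 on the congenic arrays and 432, 399 and 491 on the S arrays. Congenic replicate 1 stood above all other arrays, congenic replicate 2 was the lowest of the 6, and all S values lay inside the congenic range. The means were 515 ± 171 in congenic and 441 ± 46.7 in S pools (SD, n = 3 each). The log2 fold change was 0.17 (SE 0.18, limma adjusted p = 0.869), and its 95% interval ran from 0.856-fold to 1.49-fold. Without congenic replicate 1 the log2 fold change was -0.071. The pooled SD within groups was 0.34 on the log2 scale, a width reached by 2.32% of tested probe sets, where the median probe set had 0.12.

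Lcn2 followed the same order of arrays at the top. Its signals were 300.4, 199 and 211 on the congenic arrays and 185, 198 and 259.6 on the S arrays. Congenic replicate 1 was highest and S replicate 3 second, while the other 4 arrays lay close together. The mean was 237 ± 55.2 in congenic and 214 ± 39.9 in S pools (SD, n = 3 each). On the log2 scale the fold change was 0.13 (SE 0.15, limma adjusted p = 0.888). Without congenic replicate 1 it was -0.044.

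Of the secreted proteins, Spp1 encodes osteopontin, a glycoprotein that binds integrins and CD44, and it had the smallest pooled SD within groups of the markers, 0.069 on the log2 scale. It measured 7601, 6725 and 6973 on the congenic arrays and 6778, 6541 and 6855 on the S arrays. The groups overlapped, with congenic replicate 1 at the top. Its log2 fold change was 0.076 (SE 0.053, limma adjusted p = 0.809), the smallest p of the markers, with a 95% interval of 0.972-fold to 1.14-fold. Without congenic replicate 1 it was 0.026. Spp1 transcripts are also made by healthy distal and thin limb segments, so the signal is not that of injured cells alone.

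Clu encodes clusterin, an extracellular chaperone known to be induced in damaged epithelium, and it had 2 probe sets, of which 1 passed the filter. The bright one (1367784_a_at) measured 2272, 1586 and 1587 on the congenic arrays and 1533, 1797 and 1833 on the S arrays. Only congenic replicate 1 stood above the S arrays, and the other congenic arrays lay below 2 of the 3 S arrays. Its log2 fold change was 0.059 (SE 0.13, limma adjusted p = 0.943), and -0.11 without congenic replicate 1. The dim one (1388246_at) measured 22.9, 15.7 and 16.6 on the congenic arrays and 5.05, 7.52 and 8.83 on the S arrays. Here the groups did not overlap and all congenic arrays were the higher, but the mean lay below the filter on low values, a signal of about 25.0, so it had no test in the main comparison. Fitted with no filter, its log2 fold change on the scale of signal + 16 was 0.57 (limma unadjusted p = 0.00313, adjusted p = 0.841). Detection calls were not used here, and whether so dim a signal lies above background was not tested.

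Timp1, the inhibitor of matrix metalloproteinases that is secreted during scarring, had the tightest congenic values of the markers. They were 230.2, 230.2 and 224 on the congenic arrays, against 221, 195 and 236 on the S arrays. All congenic values lay inside the S range. The log2 fold change was 0.068 (SE 0.084, limma adjusted p = 0.891), with a 95% interval of 0.921-fold to 1.19-fold.

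Among the cytoskeletal and membrane-associated markers, Vim encodes vimentin, the intermediate filament of mesenchymal and dedifferentiated tubule cells. It measured 1204, 1087 and 1154 on the congenic arrays and 1146, 1151 and 1310 on the S arrays. The arrays of both strains mixed, with S replicate 3 highest. The log2 fold change was -0.064 (SE 0.068, limma adjusted p = 0.872), and -0.098 without congenic replicate 1. Anxa2 encodes annexin A2, which binds membrane phospholipids in the presence of calcium. Its bright probe set (1367584_at) measured 969, 757 and 909.7 on the congenic arrays and 900.3, 892 and 974 on the S arrays, and its log2 fold change was -0.075 (SE 0.087, limma adjusted p = 0.886). Congenic replicate 2 was lowest by a clear margin, and without it the log2 fold change was 0.026, whereas without congenic replicate 1 it was -0.15. The other Anxa2 probe set (1392250_at) lay below the filter, at 14.2, 14.2 and 13.3 on the congenic arrays and 10.3, 3.64 and 16.2 on the S arrays. Its groups overlapped.

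Cd44, the receptor for hyaluronan and osteopontin that injured tubules display, had 2 tested probe sets. The brighter (1368921_a_at) measured 170.3, 137 and 131 on the congenic arrays and 135, 107 and 145 on the S arrays, and its log2 fold change was 0.16 (SE 0.13, limma adjusted p = 0.829). The dimmer (1387952_a_at) measured 84.7, 69.2 and 68.7 on the congenic arrays and 66.7, 69.1 and 78.1 on the S arrays, and its log2 fold change was 0.045 (SE 0.11, limma adjusted p = 0.953). In both, congenic replicate 1 was highest, S replicate 3 second, and the groups overlapped. Without congenic replicate 1 the values were 0.058 and -0.037.

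Lgals3 encodes galectin-3, a lectin of macrophages and of collecting duct cells, and was the marker with the smallest difference. It measured 644, 585 and 525 on the congenic arrays and 602, 568 and 585 on the S arrays. The S values all lay inside the congenic range. The means were 585 ± 59.2 in congenic and 585 ± 17.0 in S pools (SD, n = 3 each). The log2 fold change was -0.0055 (SE 0.077, limma adjusted p = 0.991), and -0.076 without congenic replicate 1.

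**Figure D2:**
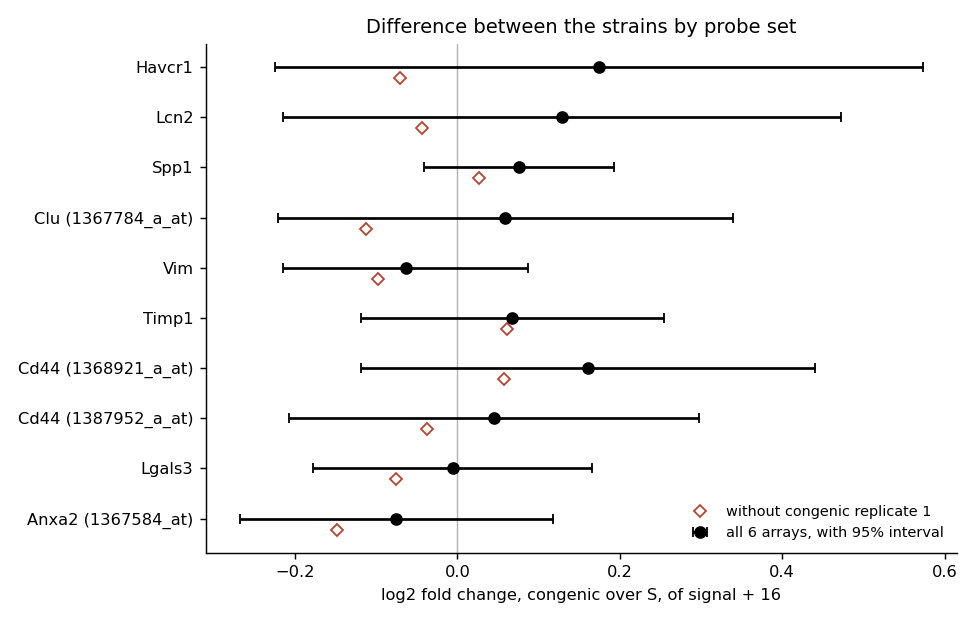
Log2 fold change of signal + 16, congenic over S, of the 10 tested probe sets, with limma's 95% interval over all 6 arrays (black) and the value without congenic replicate 1 (open red diamonds). All intervals span 0, and the widest, that of Havcr1, ends at 1.49-fold.

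The intervals limit how large a difference these arrays leave room for. Across the 10 tested probe sets they reached from 0.831-fold, at the low end for Anxa2, to 1.49-fold, at the high end for Havcr1. For Spp1, Vim, Timp1, Lgals3 and Anxa2 the upper ends were 1.14, 1.06, 1.19, 1.12 and 1.08-fold. A p above the threshold does not show that the strains are alike within these limits.

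The larger differences lay between pools of one strain. Congenic replicate 1 was the highest congenic array for 10 of 10 tested probe sets, beside 35.1% of the tested probe sets of the whole array. It was the highest of all 6 arrays for 7 of the 10, beside 17.5% of the whole array. S replicate 3 was the highest S array for 9 of 10, beside 35.2%, and the highest of all 6 for the remaining 3, beside 15.9%. Against the mean of the other 5 arrays, congenic replicate 1 was higher by 0.69 for Havcr1, 0.49 for Lcn2, 0.45 for bright Clu and 0.34 for the brighter Cd44 probe set, on the log2 scale. On that array 0.413% of tested probe sets deviated upward at least as far as Havcr1, and for Lcn2, Clu and Cd44 the shares were 1.16%, 1.59% and 3.52%. Vim and Timp1 differed little there, by 0.044 and 0.055. The median over the 10 was 0.19 on congenic replicate 1 and 0.097 on S replicate 3, and lay between -0.099 and -0.036 on the other 4 arrays. The markers share each pool's RNA, so they are not independent observations. Congenic replicate 1 is also the array with the liver transcripts. Its actin ratio of 6.15 was the lowest of the 6. Its GAPDH ratio of 1.628 was not, with 1.624 on congenic replicate 2 and 1.505 on S replicate 3. The part of liver RNA and of RNA quality in the marker signals was not tested.

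**Figure D3:**
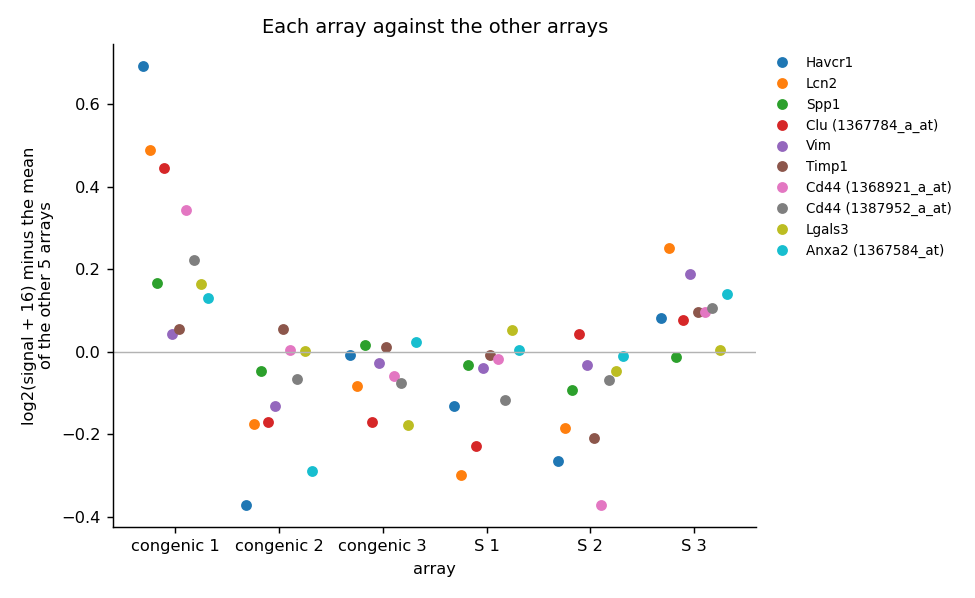
Deviation of each array from the mean of the other 5, as log2(signal + 16), for the 10 tested probe sets. Congenic replicate 1 shows positive deviations for all 10, up to 0.69 for Havcr1, and S replicate 3 has a median of 0.097.

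The stretches of 150 bases before the annotated starts are shown for the pair of markers that stood highest on congenic replicate 1, Havcr1 and Lcn2. Vim and Anxa2, the members with a match to a searched motif, are shown beside them. On that array Vim and Anxa2 deviated less, by 0.044 and 0.13 on the log2 scale. Timp1, not shown, also deviated less there (0.055) and had no match. The stretches come from RefSeq (GRCr8), 5′ to 3′ on the strand of the gene, with matches to the searched motifs in capitals.
Havcr1, chr10:31629628-31629777, plus strand: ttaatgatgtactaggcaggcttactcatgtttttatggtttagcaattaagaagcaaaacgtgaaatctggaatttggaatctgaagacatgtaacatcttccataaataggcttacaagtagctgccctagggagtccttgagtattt
Lcn2, chr3:36081781-36081930, minus strand: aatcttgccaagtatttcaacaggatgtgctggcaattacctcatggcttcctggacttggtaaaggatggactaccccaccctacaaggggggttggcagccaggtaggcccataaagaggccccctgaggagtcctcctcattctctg
Vim, chr17:81577111-81577260, plus strand: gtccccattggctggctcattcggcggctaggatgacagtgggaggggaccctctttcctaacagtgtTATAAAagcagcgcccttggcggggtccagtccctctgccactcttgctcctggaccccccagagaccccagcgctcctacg
Anxa2, chr8:78986102-78986251, plus strand: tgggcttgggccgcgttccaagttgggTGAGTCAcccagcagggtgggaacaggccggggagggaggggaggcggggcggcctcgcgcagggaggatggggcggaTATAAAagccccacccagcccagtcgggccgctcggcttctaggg
Both strands were searched, and no match overlapped another. Of the 7 members with an entry (Havcr1, Lcn2, Spp1, Vim, Timp1, Cd44 and Anxa2), the TATA box letters TATAAA were found in 2, Vim and Anxa2, against 8% of 33469 promoter windows of the same length. The AP-1 letters TGANTCA were found in 1, Anxa2, against 3.69% of the windows. The letters for STAT factors, TTCNNNGAA, were found in 0 of the 7, against 4.41%. These matches are a description of the letters in this window.

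Other genes of tubular injury and repair were read from a list of 22, all measured and 19 tested. Of the 19, 0 passed limma's adjusted threshold in either direction, 13 had a log2 fold change above 0, and the median was 0.047. These values include congenic replicate 1, and the list was not fitted without that array. At an unadjusted p under 0.05 there were 2 higher in congenic pools, beside 3.1% of all probe sets in that direction, and 0 lower, beside 3.52%. The smallest p belonged to Cryab, a small heat shock protein, at 2585, 2822 and 2857 on the congenic arrays and 2196, 2234 and 2268 on the S arrays. Its groups did not overlap, and the log2 fold change was 0.30 (SE 0.053, limma adjusted p = 0.323). Gdf15, a secreted stress cytokine, measured 42.9, 32.3 and 40.3 on the congenic arrays and 21.0, 30.5 and 29.2 on the S arrays. Its log2 fold change was 0.35 (limma adjusted p = 0.746), and again the groups did not overlap. Groups were free of overlap in 3 of the 19 genes, beside 12.5% of all tested probe sets.

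On this list, too, congenic replicate 1 was often the highest array, for 12 of 19 genes, beside 17.5% of the tested probe sets of the whole array. The fibrinogen genes and C3, which injured tubules express and which are made above all in the liver, had the widest gaps. Fgg measured 423 on congenic replicate 1, against 28.1 and 30.8 on the other congenic arrays and 36.5 to 39.3 on the S arrays, and C3 measured 747, against 157 and 154 on the other congenic arrays and 168 to 185 on the S arrays. Fga and Fgb were also highest there, at 599 and 281. Those 4 genes are among the 12 that were highest there and among the 13 with a log2 fold change above 0. They moved with the liver transcripts of that array, and the part of liver RNA in them was not tested. The epithelial keratins Krt8 and Krt18 had log2 fold changes of 0.0098 and -0.098.

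Genes whose products bind or are regulated by the markers were read from a list of 20, of which 18 were measured and 17 tested. None passed (0 of 17), with 11 above 0 and a median log2 fold change of 0.043. Anxa5, the annexin that binds phosphatidylserine, had the smallest p, at 1692, 1664 and 1572 on the congenic arrays and 1444, 1357 and 1552 on the S arrays. The groups did not overlap, and the log2 fold change was 0.18 (limma adjusted p = 0.728). It was the only gene free of overlap (1 of 17), beside 12.5% of all tested probe sets. Slc22a17, the receptor for the Lcn2 protein, had a log2 fold change of -0.19 (limma adjusted p = 0.780). S100a10, the partner of annexin A2, and Cd63, a receptor for TIMP-1, stood at 0.061 and 0.064. The integrin genes Itgav and Itgb1, whose products bind osteopontin, stood at 0.075 and 0.094.

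Genes of the differentiated tubule, which are lost on injury, did not pass the test either (0 of 14). Their median log2 fold change was -0.036, with 9 of 14 lower in congenic pools. Slc12a1, the sodium, potassium and chloride cotransporter of the thick ascending limb, had the smallest p, with a log2 fold change of 0.13 (limma adjusted p = 0.782). Lrp2, the gene of megalin, which takes up filtered proteins, followed with -0.086 (limma adjusted p = 0.794). Egf and Umod, distal genes that decline in damaged kidneys, stood at 0.024 and 0.026, both within 1 SE of 0.

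**Figure D4:**
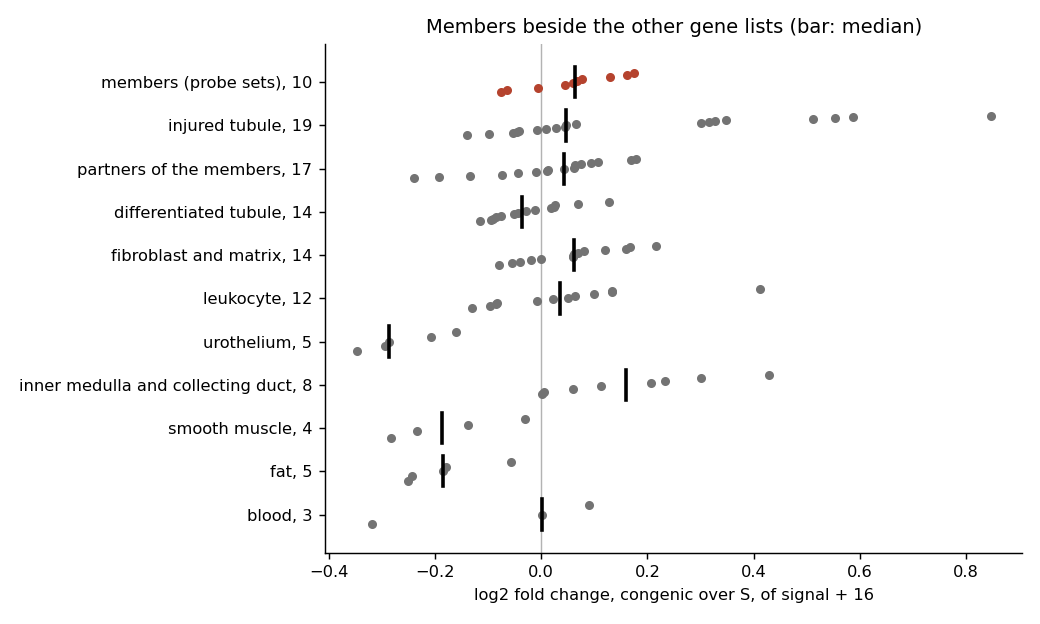
Log2 fold change of signal + 16, congenic over S, for each tested probe set of the markers (red) and each tested gene of 10 other lists (grey), with the number tested after the name and the median as a black bar. The markers' median of 0.063, which was -0.057 without congenic replicate 1, lies near those of the injury list (0.047) and the fibroblast and matrix list (0.061). The other lists were not fitted without that array. Liver and adrenal lists, which stand on 1 array each, are not drawn.

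Several markers are also made by cells other than tubule cells, and lists of those cells were read beside them. Fibroblast and matrix genes, which come from cells rich in Vim and Timp1, summed to 10860 to 11945 on the congenic arrays and 9925 to 11990 on the S arrays. Of 14 tested, 9 were above 0, 0 passed and the median log2 fold change was 0.061. Leukocyte genes, which come from cells rich in Lgals3 and Cd44, summed to 7350.3 to 8184 on the congenic arrays and 7316 to 7662 on the S arrays, with 0 of 12 passing, 7 above 0 and a median of 0.036. The highest leukocyte sum was again on congenic replicate 1. The lowest marker of either list was the integrin gene Itgam, at 1.79 to 4.57 on the congenic arrays and 1.78 to 2.87 on the S arrays. It lay below the filter on low values and was not tested. The complement gene C1qb of tissue macrophages had the smallest p of the leukocyte list, with a log2 fold change of 0.41 (limma adjusted p = 0.718). Acta2, the actin of myofibroblasts, stood at 0.22 (limma adjusted p = 0.794) and Ccn2, a growth factor of the matrix, at 0.17 (limma adjusted p = 0.782). The part of these cells in the marker signals was not tested.

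Lists of neighbouring structures, blood aside, had medians further from 0 than the markers' 0.063. None of the genes on these lists passed limma's adjusted threshold. The 5 tested urothelial genes all had lower means in congenic pools (median log2 fold change -0.29), and the uroplakin genes Upk1b and Upk1a both stood at -0.29. All 8 genes of the inner medulla and collecting duct were above 0, with a median of 0.16, though Krt7 and Avpr2 barely so (0.00047 and 0.0043). Their water channel genes Aqp3 and Aqp2 stood at 0.43 and 0.23. Smooth muscle genes had a median of -0.19 over 4 tested genes, with Myh11 at -0.28 and Des at -0.23, and fat genes a median of -0.18 over 5, with Adipoq at -0.25 and Cidec at -0.18. The 3 blood genes had a median of 0.0021, with Hbb at 0.090 and Ahsp at -0.32. Liver and adrenal genes had medians of 1.57 and 1.66 over 4 tested genes each, from congenic replicates 1 and 3. Cps1 and Serpina1 stood at 1.38 and 1.75, and Cyp11a1 and Hsd3b1 at 1.65 and 1.67. Some of these genes passed the filter (a signal of about 25.0) only through that array. Serpina1 measured at most 14.6 on the S arrays and 12.4 on the other congenic arrays, and the adrenal gene Star at most 15.6 and 13.0. These medians therefore describe single arrays and not the strains. Spp1 and Clu are expressed in the medulla as well as in injured tubules, and the part of the medullary share of each pool in their signals was not tested.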

How the data were processed

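The deposited values are linear intensities, with 1 MAS5 signal for each probe set, made by the authors with MAS5 per the submitters' processing notes. Its version, scaling target and detection calls are not given in the sources used here. After trimming 2% of probe sets at either end, all arrays averaged 150.1, so the scaling would hide a change shared by most transcripts. Arrays were grouped from their titles. Symbols came from the platform annotation, updated by gene ID to GRCr8. Of 31042 probe sets without the 57 controls, 20826 had 1 symbol (20758 matched to GRCr8), 436 had several and 9780 none.

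Values were analysed as log2(signal + 16), which understates changes of dim probe sets. The 12417 probe sets with the lowest mean log2 value (below the 40th percentile) were left out, and 18625 entered a fit by limma 3.58.1 under R 4.3.3 (lmFit, eBayes with intensity trend, 2-sided, Benjamini-Hochberg over all). The fit was tested on simulated data. For 3 against 3 pools an exact permutation test stops at p = 0.1, so it was not run. Pools come from different rats, so p-values reflect the spread between pools, and the number of arrays limits the precision.

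Named are all probe sets of the members and, in each other list, the 2 tested genes with the smallest p (with 1 probe set a gene, the brightest), plus a few chosen for their known role after values were seen. Members and lists were chosen with earlier results of these data known. Alternatives were pseudocounts of 1 and 64, no filter or the 60th percentile, median centring, quantile normalization, other eBayes settings, array weights, the replicate number as a block and each array left out. The fit without both congenic arrays that held other organs was added after the data were seen.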

Additional observations from a re-analysis of the deposited data

How the results depend on the processing

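No alternative made an injury marker pass (0 probe sets in each). Over the whole array the count that passed was 0 to 3 with each array left out, 1 without congenic replicate 2 and 3 without S replicate 3, none of them a marker. The median log2 fold change of the 10 marker probe sets was -0.057 to 0.10 with each array left out, lowest without congenic replicate 1, and -0.058 without congenic replicates 1 and 3, where the lone congenic array is assumed to vary like the S arrays. The direction of most markers depended on single arrays. With each array left out, the log2 fold change ranged from -0.071 to 0.37 for Havcr1, -0.044 to 0.27 for Lcn2, -0.11 to 0.15 for bright Clu and -0.037 to 0.10 for the dimmer Cd44 probe set, each lowest without congenic replicate 1. It ranged from -0.076 to 0.067 for Lgals3, -0.15 to 0.026 for Anxa2 and -0.0025 to 0.12 for Timp1. Without congenic replicates 1 and 3 it was -0.22 for Havcr1, -0.082 for Lcn2, -0.11 for Clu and -0.033 for the dimmer Cd44 probe set. With array weights Clu was at -0.011 and Lgals3 at 0.0026, and with quantile normalization Lgals3 was at 0.0020. The causes were not tested. Of 171 values of marker probe sets under the alternatives, 155 kept their direction and 16 turned. The filter, eBayes and replicate block settings leave a log2 fold change as it was. Their values, counted among the 155, could not turn. Arrays of the same number deviated from their group means with correlations of 0.017 to 0.043 over all tested probe sets. With 3 arrays a group, such correlations cannot show whether the pools were paired. With the replicate block, 0 probe sets passed over the whole array and 0 markers did.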
